A study of Mus musculus with 10 samples.

Results

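Messenger RNA of 9 genes for secreted and cell-surface proteases and their inhibitors was compared between the islets of mice that ran on a treadmill and of mice that did not. They were 3 matrix metalloproteinases (Mmp2, Mmp7 and Mmp14), 3 tissue inhibitors of metalloproteinases (Timp1, Timp2 and Timp3) and 3 genes of plasminogen activation (Plau, Plaur and Plat). The 9 were taken by symbol from the deposited table of 52178 Ensembl genes, and each symbol matched 1 row. Of the 9, 8 passed the filter on low counts, and Timp1 did not. The exercise group (libraries exercise 6 to 10) held islets of C57Bl/6 males, retired from breeding, that were first acclimatized for 3 days and then trained over 2 weeks, on 5 days of each week, with daily runs of 1 h; the belt moved at 17 cm/s with an incline of 5 degrees. The sedentary group (libraries sedentary 1 to 5) held islets of males of the same strain that were not trained. In both groups the islets were freed by collagenase injected into the pancreatic duct, hand-picked and plated in medium with 11 mM glucose. The labels do not say whether a library holds the islets of 1 animal or of a pool, and a p-value here reflects how libraries vary, some of which can be technical.

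Matrix metalloproteinases are zinc enzymes that cut collagens and other matrix proteins, and the TIMP proteins block them by binding the catalytic site. Plau and Plat encode urokinase and tissue plasminogen activator, which turn plasminogen into the broad protease plasmin, and Plaur encodes the receptor that holds urokinase at the cell surface. Proteases and inhibitors of both systems are counted among the proteins that senescent cells release, the senescence-associated secretory phenotype, and the series title names senescence as a subject of the study. In the pancreas, Timp2, Timp3 and Mmp14 are known mainly from stromal, endothelial and immune cells, while Mmp7 is known as a product of intestinal Paneth cells, where it activates defensins.

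The results turn most on Mmp14, which fell with all 10 libraries, on Timp3, which rose in a fit of 8, and on Mmp7, which ranged from 0.244 to 9.77 CPM (counts relative to library size), so the 250 bases before the start of these 3 genes are shown, 5′ to 3′ on the gene's strand. They are taken from RefSeq (build GRCm38.p6), whose promoter table held 6 of the 9 genes, Mmp7, Mmp14, Timp1, Timp2, Timp3 and Plaur. Capitals mark exact matches to 3 motifs searched on both strands.
Mmp14, chr14:54431348-54431597, plus strand: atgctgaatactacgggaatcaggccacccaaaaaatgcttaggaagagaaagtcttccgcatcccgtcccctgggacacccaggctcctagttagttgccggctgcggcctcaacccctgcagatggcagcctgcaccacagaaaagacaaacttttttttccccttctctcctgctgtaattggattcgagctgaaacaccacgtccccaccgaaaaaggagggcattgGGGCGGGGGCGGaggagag
Timp3, chr10:86300162-86300411, plus strand: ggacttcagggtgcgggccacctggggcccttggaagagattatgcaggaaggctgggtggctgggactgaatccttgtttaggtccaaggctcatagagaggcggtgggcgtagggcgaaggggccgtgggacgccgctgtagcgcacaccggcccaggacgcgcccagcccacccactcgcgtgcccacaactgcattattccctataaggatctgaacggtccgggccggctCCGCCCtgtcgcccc
Mmp7, chr9:7691840-7692089, plus strand: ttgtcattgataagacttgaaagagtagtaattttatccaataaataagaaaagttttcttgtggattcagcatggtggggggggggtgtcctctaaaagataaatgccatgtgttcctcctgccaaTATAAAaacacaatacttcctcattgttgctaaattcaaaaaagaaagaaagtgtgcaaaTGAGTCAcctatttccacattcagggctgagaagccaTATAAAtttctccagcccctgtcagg
The motifs were the AP-1 site (TGANTCA), the GC box (GGGCGG, which overlapped itself in Plaur) and the TATA box (TATAAA), found in 6.75%, 32.74% and 12.37% of 32851 windows of the same length. The Mmp14 window held 2 GC boxes, at bases 19 to 14 and 13 to 8 before the start, and the Timp3 window 1, at bases 15 to 10. The Mmp7 window shown held 1 AP-1 match at bases 63 to 57 and 2 TATA boxes, at bases 123 to 118 and 26 to 21. The promoter table held another Mmp7 window, chr9:7692091-7692340, which is not shown and had no match to any of the 3 motifs. Apart from Mmp7, an AP-1 match was found among the 6 genes in Plaur, at bases 69 to 63. Timp1 and Timp2 held 1 GC box each. A match describes the letters of a window and shows no binding. The genes lay on different chromosomes for the most part, with Mmp2 and Plat both on chromosome 8 and Mmp14 and Plau both on chromosome 14.

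Library totals lay between 15081922 and 23222704 counts, so that 1 count corresponded to 0.0432 to 0.0651 CPM on library sizes scaled by TMM, a method that evens out differences in composition. Sedentary 1 and 2 stood apart from the other libraries. The summed level of 17 islet endocrine markers, led by Ins2 and Ins1, was 9572 and 43840 CPM in these 2 libraries and between 155700 and 228200 CPM in the other 8. The 24 enterocyte markers, led by Apoa4 and Alpi, summed to 17780 and 24770 CPM in them, to 3609 to 4950 CPM in sedentary 3 to 5 and to 398 to 986 CPM in exercise libraries. Of 23 tested enterocyte markers 22 fell in exercise. The 25 acinar markers, led by Cela2a and Ctrb1, summed to 69070 to 141900 CPM in sedentary and 151900 to 403000 CPM in exercise libraries, with the 2 highest sums in exercise 6 (264700) and 9 (403000), and 15 of 25 rose. All markers of these 3 lists had counts. The tests below are therefore given for all 10 libraries and for the 8 without sedentary 1 and 2. In bulk RNA, fewer cells of a type and less RNA per cell cannot be told apart.

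With all 10 libraries 1 of 8 tested genes, Mmp14, fell and 0 rose (edgeR quasi-likelihood test, Benjamini-Hochberg adjusted over 15298 genes, threshold 0.05; 3 more, Mmp2, Timp3 and Plat, had an unadjusted p under 0.05). Of all genes tested, 11.4% fell and 2.44% rose. An unadjusted p under 0.05 in this edgeR test was common, held by 5105 of the 15298 genes. In the 8 libraries Mmp2 fell and Timp3 rose out of 9 tested genes, where 8.68% of 15692 genes fell and 4.10% rose. With so few genes, 1 in either direction cannot be told from these shares. The median log2 fold change of the 8 genes was 0.43 with 10 libraries, against -0.001 over all genes tested. In the fit of 8 libraries it was -0.002 over 9 genes, against 0.026.

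**Figure D1:**
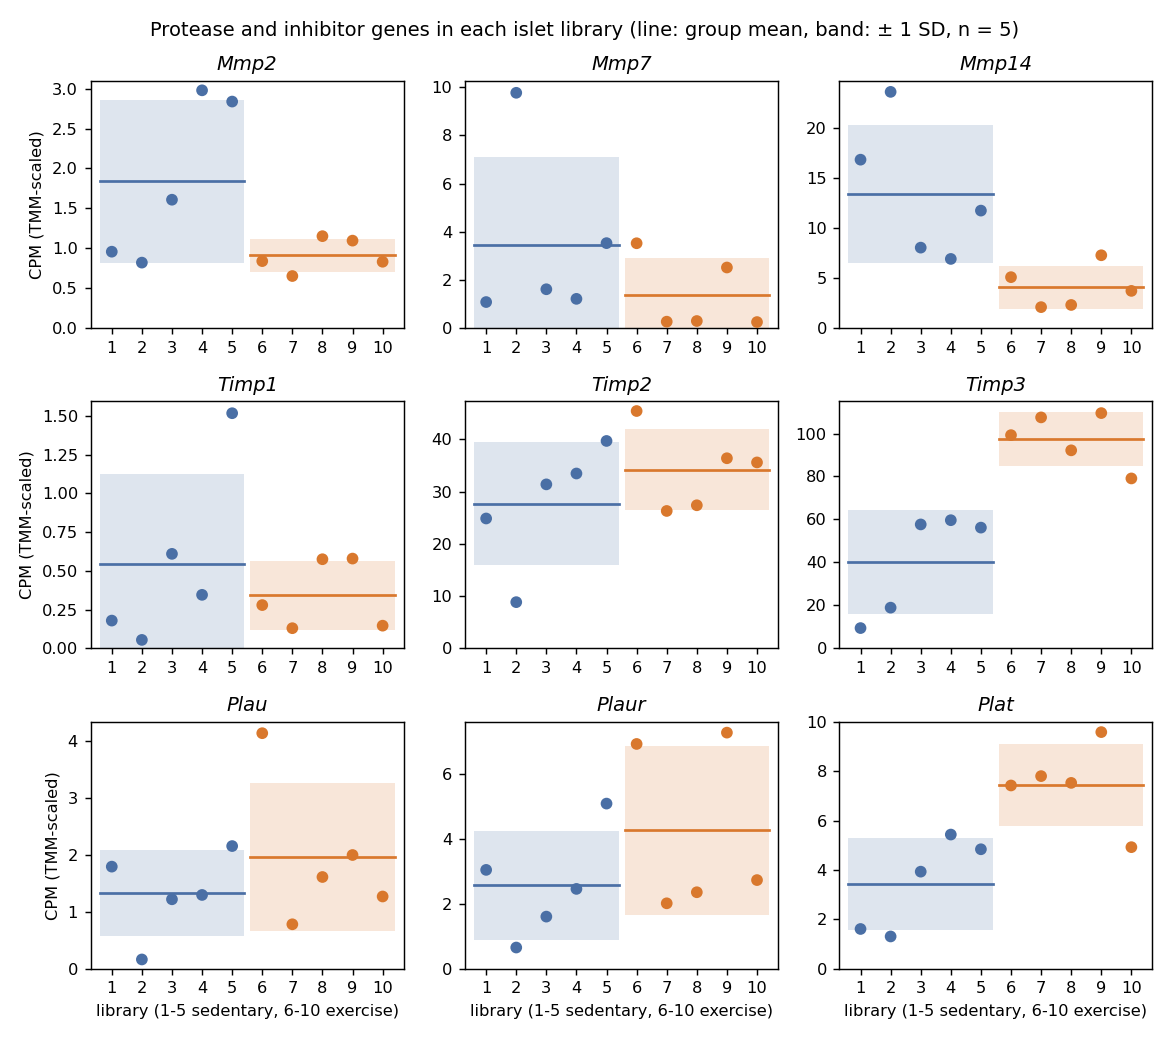
CPM of each of the 9 genes in every library (x axis: library number, blue sedentary 1 to 5, orange exercise 6 to 10), with the group mean as a line and 1 SD as a band. Timp3 is the gene whose 5 exercise libraries all lie above the 5 sedentary ones, and Mmp7 is highest in sedentary 2.

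Mmp14 (ENSMUSG00000000957) encodes a membrane-anchored metalloproteinase that cuts collagen and activates the Mmp2 protein. Its level was 16.9, 23.6, 8.04, 6.91 and 11.8 CPM in sedentary 1 to 5 and 5.09, 2.08, 2.30, 7.28 and 3.71 CPM in exercise 6 to 10. The 2 highest values were those of sedentary 1 and 2, and the groups overlapped only in that exercise 9 lay above sedentary 4. Mmp14 fell from 13.4 ± 6.90 to 4.09 ± 2.15 CPM (mean ± SD, n = 5 each), with an edgeR adjusted p = 0.0296 and a log2 fold change of -1.71 ± 0.44 (± is the SE for every log2 fold change). Without sedentary 1 and 2 the log2 fold change was -1.10 ± 0.38 and did not pass (edgeR adjusted p = 0.0889). The call was also lost when 1 library was left out, with edgeR adjusted p = 0.0605 without sedentary 1, 0.0609 without sedentary 2, 0.0574 without exercise 6, 0.0725 without exercise 7, 0.0749 without exercise 8 and 0.0736 without exercise 10. The log2 fold change stayed between -1.97 and -1.41 in these and the other leave-one-out fits. The enterocyte markers, like Mmp14, were highest in sedentary 1 and 2 and lower in exercise. Within exercise their sums were 986, 398, 805, 569 and 909 CPM in exercise 6 to 10. Exercise 7 was lowest in both, but exercise 9, with the highest Mmp14 of its group, had a lower sum than exercise 6, 8 and 10. With the mean of the enterocyte markers as a covariate (r squared with the group 0.792) the log2 fold change of Mmp14 was -0.40 ± 0.90 (edgeR adjusted p = 0.911). With this covariate 0 of all 15298 genes passed, so the lost call is not particular to Mmp14. The 12 duct markers, all with counts, were highest in sedentary 1 and 2 as well. They summed to 1191, 2134, 555, 406 and 583 CPM in sedentary 1 to 5 and to 285 to 471 CPM in exercise. Within exercise the duct sum was highest in exercise 6 and lowest in exercise 10, unlike Mmp14. The part of intestinal or duct cells in the Mmp14 level was not tested.

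Mmp2 (ENSMUSG00000031740) encodes a gelatinase that cuts basement membrane collagen. It was low, at 0.956, 0.819, 1.61, 2.98 and 2.84 CPM in sedentary 1 to 5 and 0.838, 0.651, 1.15, 1.10 and 0.830 CPM in exercise 6 to 10, or 10 to 69 counts a library. Here sedentary 1 and 2 lay with the exercise libraries, and sedentary 3 to 5 lay above all 7 of them. With 10 libraries the log2 fold change was -1.01 ± 0.41 (edgeR adjusted p = 0.114). In the 8 libraries Mmp2 fell from 2.48 ± 0.755 CPM (sedentary 3 to 5, n = 3) to 0.913 ± 0.207 CPM (n = 5), a log2 fold change of -1.41 ± 0.29 (edgeR adjusted p = 0.0110). The 20 fibroblast and pericyte markers, led by Rgs5 and Dcn, all had counts and summed to 145 to 316 CPM in sedentary and 165 to 242 CPM in exercise libraries. The highest sum was that of sedentary 1 and the lowest that of sedentary 2, although Mmp2 was low in both (0.956 and 0.819 CPM). Within the 8 libraries the sums were 193 to 301 CPM in sedentary 3 to 5, so the groups overlapped in the sum. Of the 19 tested markers of this list 0 rose and 3 fell in the 8 libraries (list median log2 fold change -0.27). Those that fell there were Fbln1, Lum and Col6a1, with edgeR adjusted p = 0.00124, 0.0180 and 0.0305 and log2 fold changes of -2.60, -1.45 and -0.85. The collagen genes Col1a1 and Col3a1 had log2 fold changes of -1.04 and -1.02 there (edgeR adjusted p = 0.0566 and 0.0617), while that of Rgs5 was 0.01. Lum, Col6a1 and Col1a1 were chosen after their values were seen, and the part of these cells in the Mmp2 level was not tested.

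Mmp7 (ENSMUSG00000018623), encoding matrilysin, a small metalloproteinase made mostly by epithelia, varied most. It was at 1.08, 9.77, 1.61, 1.21 and 3.52 CPM in sedentary 1 to 5 and at 3.52, 0.260, 0.288, 2.51 and 0.244 CPM in exercise 6 to 10. In exercise, libraries 7, 8 and 10 held 4 to 5 counts each, while exercise 6 and 9, the 2 libraries with the highest acinar sums, held 63 and 39. The log2 fold change was -1.33 ± 0.91 with 10 libraries, -0.61 ± 0.86 with 8 and -0.45 ± 0.85 without sedentary 2 alone (edgeR adjusted p = 0.311, 0.673 and 0.736). Paneth and goblet cell markers were also highest in sedentary 2. The list of 18, given without Zg16 because that gene stands in the acinar list too, summed to 840, 3761, 486, 250 and 583 CPM in sedentary 1 to 5 and to 14.8 to 107 CPM in exercise, all 17 with counts. In exercise 6 and 9, where Mmp7 was highest of its group, the sums were 70.0 and 14.8 CPM. The part of Paneth and goblet cells in the Mmp7 level was not tested.

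Timp3 (ENSMUSG00000020044) encodes an inhibitor that stays bound to the matrix and blocks metalloproteinases and ADAM-family sheddases. It was at 9.44, 18.9, 57.7, 59.7 and 56.2 CPM in sedentary 1 to 5 and at 99.2, 107, 92.2, 109 and 79.1 CPM in exercise 6 to 10. Every exercise library lay above every sedentary library, 1 of 8 tested genes with groups apart in this direction (6.24% of all genes tested), and no gene of the 8 had all exercise libraries lower (11.4% of all genes). Because sedentary 1 and 2 were so low, the sedentary mean of 40.4 ± 24.2 CPM had a wide spread beside 97.5 ± 12.4 CPM in exercise. The log2 fold change of 1.27 ± 0.44 then did not pass (edgeR adjusted p = 0.0797). In the 8 libraries Timp3 rose from 57.8 ± 1.73 CPM (n = 3) by a log2 fold change of 0.78 ± 0.12 (edgeR adjusted p = 0.00258). The endocrine markers were at 155700 to 228200 CPM in sedentary 3 to 5 and 157500 to 215600 CPM in exercise, and the 14 endothelial markers, led by Plvap and Flt1, at 323 to 408 and 339 to 444 CPM. Both lists had counts for all markers, and their sums overlapped between the groups of these 8 libraries. In the 8 libraries 1 of 17 endocrine and 1 of 14 endothelial markers rose and 0 fell, with list median log2 fold changes of 0.12 and 0.10. The markers that rose were G6pc2 (endocrine, chosen after its values were seen) and Flt1 (endothelial), by log2 fold changes of 0.85 and 0.49 (edgeR adjusted p = 0.0121 and 0.0183). In both genes every exercise library lay above every sedentary one. The endocrine marker Gcg went the other way, at -0.95 (edgeR adjusted p = 0.0964). The part of these cells in the Timp3 level was not tested. In sedentary 1 and 2 the endothelial sums were 205 and 106 CPM, so both lists and Timp3 were low there together. Of these 2 libraries, Timp3 and the endocrine sum were lower in sedentary 1 and the endothelial sum was lower in sedentary 2.

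Timp2 (ENSMUSG00000017466), an inhibitor that also helps to activate the Mmp2 protein on the Mmp14 protein, was not detectably different. It was at 24.9, 8.85, 31.4, 33.5 and 39.7 CPM in sedentary 1 to 5 and at 45.4, 26.3, 27.4, 36.4 and 35.6 CPM in exercise 6 to 10. Only sedentary 2 lay outside the range of 24.9 to 45.4 CPM held by the other 9. The log2 fold change was 0.31 ± 0.34 with 10 libraries (edgeR adjusted p = 0.510) and -0.002 ± 0.173 with 8 (edgeR adjusted p = 0.997). Timp1 (ENSMUSG00000001131), the inhibitor most often measured as a secreted marker of tissue injury, had 1 to 31 counts a library, or 0.541 ± 0.584 CPM in sedentary and 0.342 ± 0.222 CPM in exercise. Its highest value, 1.52 CPM, was that of sedentary 5. Where it could be tested its log2 fold change was -0.68 ± 0.77 with no filter and -1.24 ± 0.62 in the 8 libraries (edgeR adjusted p = 0.563 and 0.221), so no difference was detectable at this depth.

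Plat (ENSMUSG00000031538), encoding tissue plasminogen activator, was at 1.61, 1.31, 3.94, 5.44 and 4.85 CPM in sedentary 1 to 5 and at 7.43, 7.81, 7.54, 9.60 and 4.93 CPM in exercise 6 to 10. Exercise 10 alone fell below the highest sedentary library, sedentary 4. The means were 3.43 ± 1.88 and 7.46 ± 1.67 CPM, a log2 fold change of 1.11 ± 0.40 (edgeR adjusted p = 0.0832). In the 8 libraries it was 0.67 ± 0.21 (edgeR adjusted p = 0.0700). Of the fits with 1 library left out, Plat passed only without sedentary 4, with 1.35 ± 0.41 (edgeR adjusted p = 0.0415). In the others its edgeR adjusted p lay between 0.0809 and 0.160. Without sedentary 4 more genes rose in the whole series too, 889 against 374 with 10 libraries. As with Timp3, the low values of sedentary 1 and 2 went with low endocrine and endothelial sums.

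Plau (ENSMUSG00000021822), encoding urokinase, and its receptor gene Plaur (ENSMUSG00000046223) varied more within the groups than between them. Plau was at 1.79, 0.164, 1.22, 1.30 and 2.15 CPM in sedentary 1 to 5 and at 4.13, 0.781, 1.61, 2.00 and 1.27 CPM in exercise 6 to 10. Plaur was at 3.05, 0.655, 1.61, 2.46 and 5.09 CPM and at 6.93, 2.02, 2.36, 7.28 and 2.73 CPM in the same order. Both were lowest of all in sedentary 2 and low in exercise 7, and both were high in sedentary 5 and exercise 6. The log2 fold changes were 0.56 ± 0.59 for Plau and 0.72 ± 0.55 for Plaur (edgeR adjusted p = 0.491 and 0.354), and 0.35 ± 0.49 and 0.50 ± 0.53 in the 8 libraries (edgeR adjusted p = 0.668 and 0.570). The 15 macrophage markers, led by Lyz2 and C1qa and all with counts, summed to 245, 61.2, 298, 366 and 731 CPM in sedentary 1 to 5 and to 572, 207, 310, 341 and 351 CPM in exercise 6 to 10. Their sum was thus lowest in sedentary 2 and, in exercise, in exercise 7. It was highest in sedentary 5, whereas Plau was highest in exercise 6 and Plaur in exercise 9. Of the macrophage markers 2 rose and 0 fell, and the part of macrophages in the levels of Plau and Plaur was not tested.

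**Figure D2:**
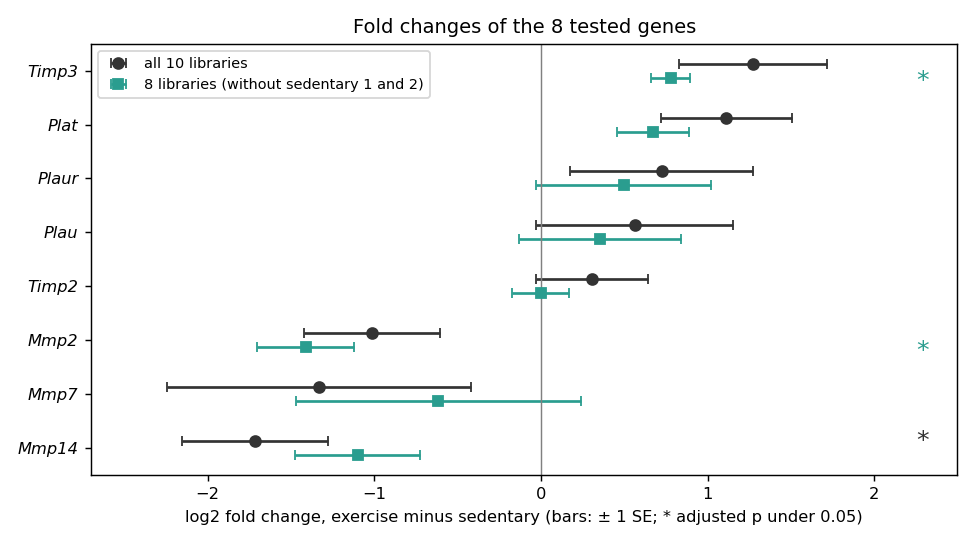
Log2 fold change (exercise minus sedentary, x axis) of the 8 tested genes with 1 SE, from all 10 libraries (black circles) and from the 8 without sedentary 1 and 2 (green squares); a star marks an adjusted p under 0.05. Mmp14 passes with 10 libraries, Mmp2 and Timp3 with 8, and Timp2 moves from 0.31 to -0.002.

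**Figure D3:**
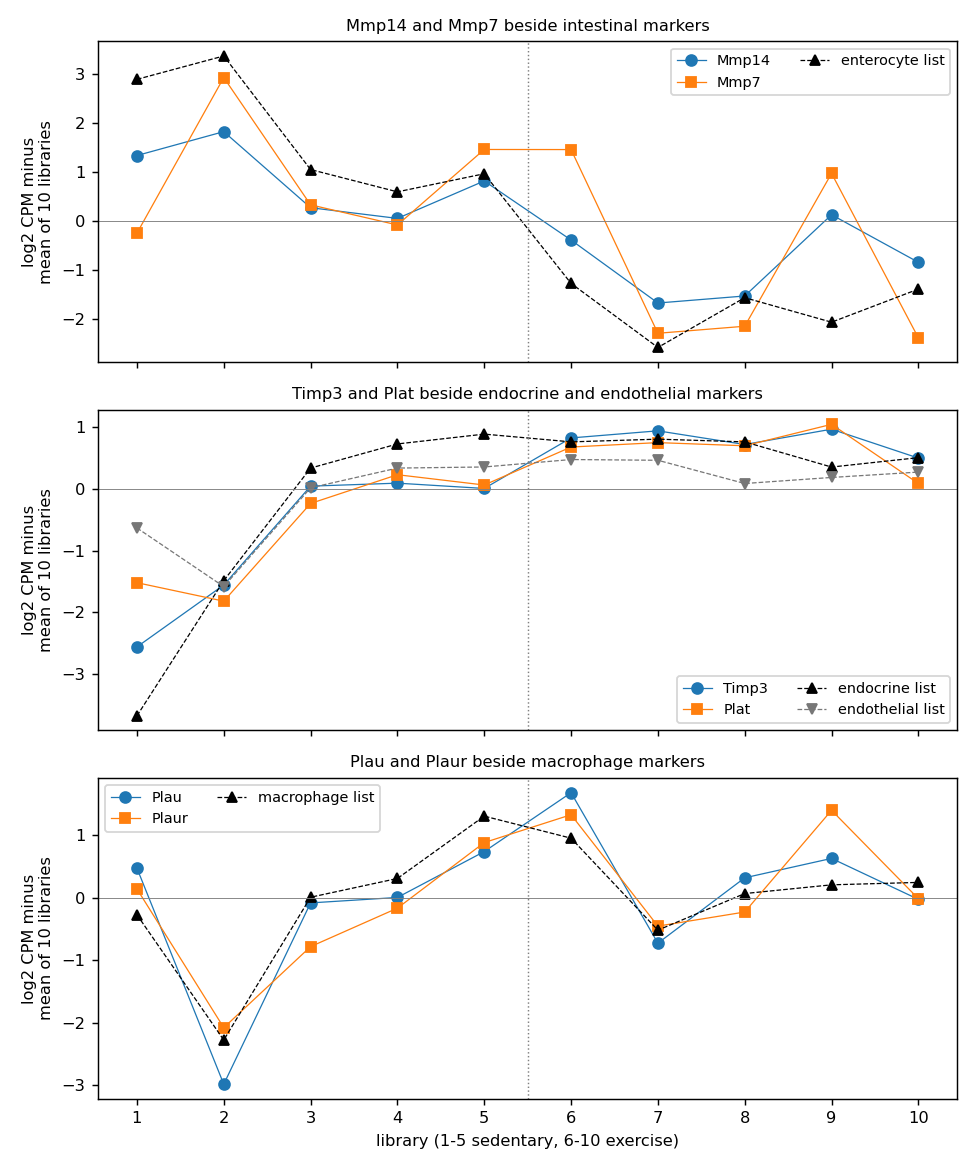
Log2 CPM of 6 genes and of summed marker lists in each library, as the difference from the mean over the 10 libraries (y axis), against the library number (x axis, 1 to 5 sedentary, 6 to 10 exercise); thin lines only join the points. Mmp14 is high with the enterocyte list in sedentary 1 and 2, Timp3 and Plat are low there with the endocrine list, and Plau, Plaur and the macrophage list are lowest in sedentary 2.

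A ratio of counts of 2 genes within a library does not depend on how libraries are scaled. There were 0.678, 2.67, 0.256, 0.206 and 0.296 Mmp14 counts per Timp2 count in sedentary 1 to 5, and 0.112, 0.0792, 0.0840, 0.200 and 0.104 in exercise 6 to 10. The protease was thus lower relative to this inhibitor in all 5 exercise libraries, if by little for exercise 9. Timp3 counts per Timp2 count were 0.380, 2.14, 1.84, 1.78 and 1.42 in sedentary 1 to 5 and 2.19, 4.09, 3.37, 3.01 and 2.22 in exercise 6 to 10. Sedentary 2, with the lowest Timp2 level, came nearest to the exercise range. These pairs were chosen after their values were seen, and the ratios show unequal change and not which gene changed.

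Levels can be compared between genes only per transcript length, here as CPM per kb of the longest coding transcript in GENCODE M21. In exercise libraries Timp3 was highest at 20.7 ± 2.63 CPM per kb, followed by Timp2 at 9.23 ± 2.10, and neither range overlapped that of the gene below it. Plat at 2.96 ± 0.659 and Plaur at 2.83 ± 1.73 CPM per kb followed and did not differ beyond their spread. Mmp7 at 1.28 ± 1.45, Mmp14 at 1.26 ± 0.665, Plau at 0.836 ± 0.553, Timp1 at 0.388 ± 0.252 and Mmp2 at 0.297 ± 0.0671 CPM per kb each overlapped the next. In sedentary libraries the order was Timp3 at 8.55 ± 5.12, Timp2 at 7.46 ± 3.18, Mmp14 at 4.15 ± 2.13, Mmp7 at 3.22 ± 3.44, Plaur at 1.71 ± 1.11 and Plat at 1.36 ± 0.744 CPM per kb. Timp1, Mmp2 and Plau were lowest, at 0.613 ± 0.661, 0.598 ± 0.332 and 0.566 ± 0.321 CPM per kb, and each gene of the sedentary order overlapped the next. Mmp14 stood in the third place in sedentary and in the sixth in exercise libraries. The transcripts behind the deposited counts may have other lengths.

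**Figure D4:**
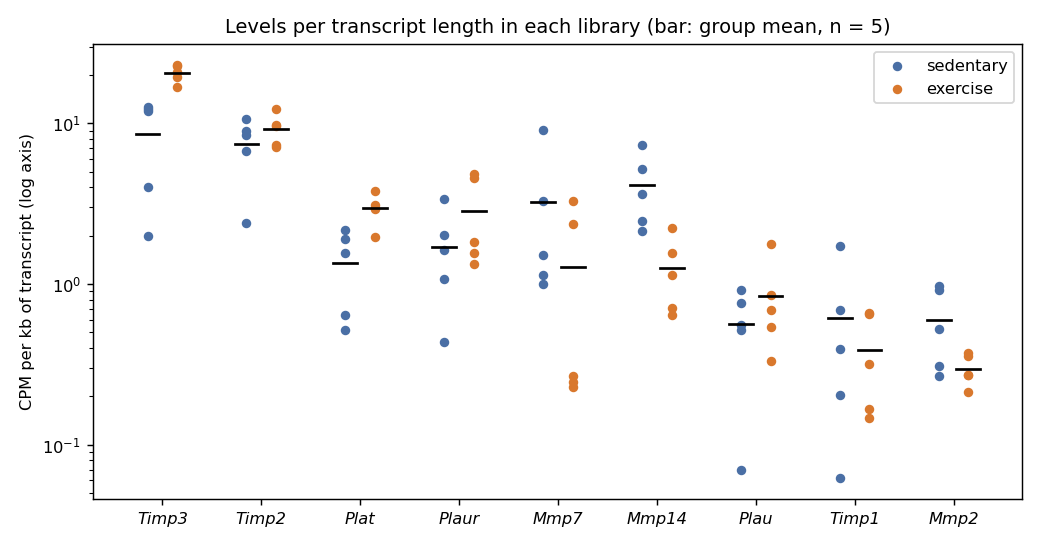
CPM per kb of the longest coding transcript (y axis, log scale) for the 9 genes, 1 point per library (blue sedentary, orange exercise) and a bar at each group mean. Timp3 and Timp2 lie above the other genes in all exercise libraries, and the sedentary points of Timp3 and Timp2 are spread more widely than their exercise points.

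The genes whose levels followed each of the 8 most closely over the 10 libraries differed by gene. These are descriptions by Pearson's r of log2 CPM among 10726 or 10725 other genes, and all points share library, depth and group. Timp3 was followed by Gabarapl1, an autophagy gene, and B3galnt1 (r = 0.994 each). Plat was followed by Tlr2 (0.989), the matrix gene Thbs1 (0.988) and Nucb2 (0.985). Timp2 was followed by C1qc (0.974), a complement gene of the macrophage list, and by Limk1 (0.966). Plau was followed by Cd68 (0.955), the fatty acid binding protein gene Fabp4 (0.954) and C1qb (0.949), where Cd68 and C1qb belong to the macrophage list. Plaur was followed by Il11ra1 (0.958), Anxa1 (0.943) and Fabp4 (0.938). Mmp14 was followed by Tarbp2 (0.975), Rpl7l1 (0.973) and the interferon-induced Ifi47 (0.967), the last at 25.4 CPM in sedentary and 3.98 CPM in exercise libraries. Mmp7 was followed by Zfp954 (0.957), Ap4s1 (0.919) and Ifitm3 (0.893). For Mmp2 the highest values were lower than for the other 7 genes, at 0.821 for Ctps2 and 0.799 for Prg4 and Slpi.

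The other genes of these pathways were counted in 4 lists. Of 20 other metalloproteinases 10 could be tested, of which Mmp19 rose and Mmp28 fell (list median log2 fold change 0.51). Of 12 regulators and partners of metalloproteinases 10 could be tested, of which 0 rose and Lrp1 fell (median 0.34). Of 16 genes of the plasminogen system 12 could be tested, of which 0 rose and Serpinf2, Plgrkt and Anxa2 fell (median 0.02). Of 21 ADAM and ADAMTS genes 17 could be tested, of which Adamts9 rose and 0 fell (median 0.08). In the 8 libraries the medians of these 4 lists were 0.30, 0.19, -0.15 and 0.13. In sum 2 of 49 tested genes rose and 5 fell, against 2.44% and 11.4% of all genes, and in the 8 libraries 4 of 51 rose and 4 fell, against 4.10% and 8.68%. The 4 that rose in the 8 libraries were Mmp19, Adamts9, Furin and Serpini1, and the 4 that fell Lrp1, Serpinf2, Anxa2 and Serpinb6a; Furin, Serpini1 and Serpinb6a were chosen after their values were seen.

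Both pathway genes that rose encode secreted metalloproteinases. Adamts9, which cuts proteoglycans, rose from 3.68 ± 1.58 to 16.7 ± 10.2 CPM (edgeR adjusted p = 0.0142, log2 fold change 2.18 ± 0.46), and exercise 6 and 9 were highest at 21.3 and 32.3 CPM. Mmp19 rose from 1.40 ± 0.870 to 8.55 ± 6.64 CPM (edgeR adjusted p = 0.0315, log2 fold change 2.60 ± 0.68), with exercise 6 and 9 again highest at 18.05 and 13.01 CPM. For both genes the groups did not overlap, and exercise 6 and 9 were also the libraries with the highest acinar sums. With the mean of the acinar markers as a covariate (r squared with the group 0.654) the log2 fold changes were 0.28 ± 0.42 for Adamts9 and 0.62 ± 1.14 for Mmp19, and neither passed (edgeR adjusted p = 0.740 and 0.783). With this covariate 0 of all 15298 genes passed, so the lost calls are not particular to these genes. The part of acinar cells in the levels of Adamts9 and Mmp19 was not tested. Without sedentary 1 and 2 the log2 fold changes were 1.99 and 2.21 (edgeR adjusted p = 0.0273 and 0.0491). The call of Mmp19 was lost without sedentary 1 or exercise 6, 7, 8 or 9 (edgeR adjusted p = 0.0661, 0.0755, 0.0501, 0.0512 and 0.0764).

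Of the 5 pathway genes that fell, Anxa2, Lrp1, Plgrkt and Mmp28 were highest in sedentary 1 and 2, where the enterocyte markers were highest, and Serpinf2 was highest in sedentary 2 alone. Anxa2, a cell-surface protein that binds plasminogen and tissue plasminogen activator, fell from 153 ± 118 to 29.4 ± 11.5 CPM (edgeR adjusted p = 0.0174, log2 fold change -2.37 ± 0.53), with 232 and 322 CPM in sedentary 1 and 2 and 52.5 to 84.6 CPM in sedentary 3 to 5. Lrp1, the endocytic receptor that clears protease and inhibitor complexes, fell from 84.4 ± 58.7 to 28.4 ± 4.33 CPM (edgeR adjusted p = 0.0365, log2 fold change -1.57 ± 0.43), with 147 and 151 CPM in sedentary 1 and 2 and 40.2 to 43.9 CPM in sedentary 3 to 5. Without sedentary 1 and 2 the log2 fold changes were -1.23 for Anxa2 and -0.52 for Lrp1 and both passed (edgeR adjusted p = 0.0192 and 0.0231). Plgrkt, a plasminogen receptor, fell by 1.35 on the log2 scale and Mmp28, the metalloproteinase epilysin, by 1.69 (edgeR adjusted p = 0.0420 and 0.0335). Neither passed in the 8 libraries, where the log2 fold changes were -0.48 and -0.82 (edgeR adjusted p = 0.0620 and 0.117). Serpinf2, encoding the plasmin inhibitor alpha-2-antiplasmin, fell from 1.13 ± 0.965 to 0.141 ± 0.115 CPM (edgeR adjusted p = 0.0261), and in the 8 libraries too (-2.26, edgeR adjusted p = 0.0419). Its level was near the floor, at 0.279, 0.0651, 0.230, 0.129 and 0 CPM in exercise 6 to 10. In these libraries 1 count corresponded to 0.0488 to 0.0651 CPM, so counting error weighs on the size of this fall. Leaving out 1 library ended the calls of Anxa2 (exercise 7 or 8), Serpinf2 (exercise 7, 8 or 9), and Lrp1, Mmp28 and Plgrkt (sedentary 1 or 2 or any 1 exercise library), with highest edgeR adjusted p = 0.0535, 0.0724, 0.0927, 0.0882 and 0.100. Without sedentary 2 the log2 fold change of Plgrkt was -0.96. With the enterocyte covariate the log2 fold changes were 0.50 for Anxa2, 1.01 for Lrp1, 0.81 for Plgrkt, 0.53 for Mmp28 and -0.56 for Serpinf2 (edgeR adjusted p between 0.830 and 0.904). None of the 5 passed, but with this covariate (r squared with the group 0.792) 0 of all 15298 genes did. The lost calls are therefore not particular to these 5 genes, and the part of intestinal cells in their levels was not tested.

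Among genes central to these pathways, the gelatinase gene Mmp9 was at 2.47 ± 1.74 and 4.28 ± 1.76 CPM (0.79 ± 0.58, edgeR adjusted p = 0.344), and its log2 fold change was 0.22 ± 0.34 in the 8 libraries (edgeR adjusted p = 0.700). Sedentary 1 and 2 were lowest, at 0.598 and 0.546 CPM of Mmp9. Timp4, the remaining TIMP gene, and Plg, encoding plasminogen itself and made mainly by liver, did not pass the filter, at 0.258 ± 0.151 and 0.559 ± 0.311 CPM for Timp4 and 0.255 ± 0.281 and 0.0579 ± 0.0607 CPM for Plg. The collagenase genes Mmp1a and Mmp1b had no count in any library.

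**Figure D5:**
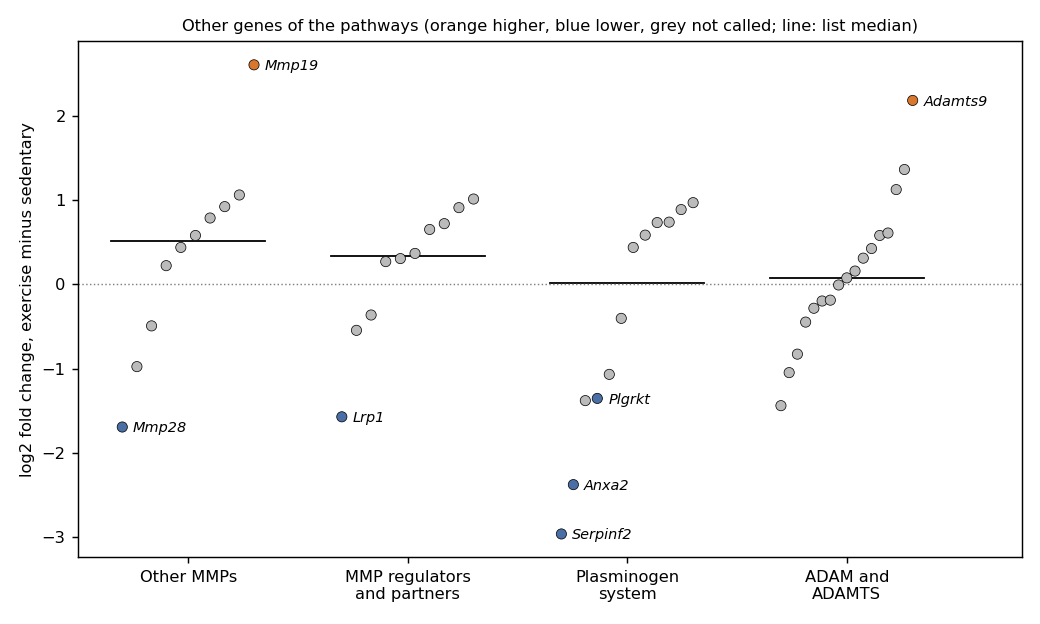
Log2 fold change (exercise minus sedentary, y axis) of each tested gene of the 4 pathway lists (x axis), with orange points higher, blue points lower and grey points not passing, and a line at each list's median. Mmp19 and Adamts9 stand above all grey points and Serpinf2, Anxa2, Mmp28 and Lrp1 below them, while Plgrkt lies among the lowest grey points.

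The remaining marker lists differed in their counts. Of 12 tested duct markers 5 fell and 0 rose, and of 12 tested Paneth and goblet markers (without Zg16, which rose) 12 fell. Of 19 fibroblast and pericyte markers 1 fell and 0 rose, and of 11 lymphocyte markers 2 fell and 0 rose. The endocrine (17 tested), endothelial (14), mesothelial (3) and neutrophil (1) markers held 0 that passed in either direction, and Ly6g, a defining neutrophil marker, had no count in any library. Without sedentary 1 and 2, 1 endocrine (G6pc2), 1 endothelial (Flt1) and 1 duct marker (Krt7, chosen after its values were seen) rose, 3 fibroblast and pericyte markers fell, 11 Paneth and goblet markers fell, and 17 acinar markers rose. The counts there of enterocyte (22 lower), other duct (5 lower), lymphocyte (2 lower) and macrophage markers (2 higher) were the same as with 10 libraries, and 0 mesothelial and neutrophil markers passed.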

How the data were processed

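Gene expression was measured by RNA-seq in 10 islet libraries, 5 per group, and groups were taken from the sample titles. Per the labels' protocols, RNA was extracted with a column kit and stranded mRNA libraries were made. The authors deposited estimated counts per Ensembl gene, and the tools named, per the submitters' processing notes, are fastp and kallisto. No version, genome build or annotation is given in the sources used here. Of the values 12.62% were not whole (tolerance 1e-06), and they were rounded before testing. Symbols were found for 97.8% of 28459 genes with a count.

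Genes were tested in R 4.3.3 with edgeR 4.0.16 (quasi-likelihood, TMM factors 0.669 to 1.20, default filter with minimum count 10 and total 15, 15298 genes, Benjamini-Hochberg threshold 0.05). The SE is the log2 fold change divided by the root of the F value. Log2 CPM used a prior count of 2. Intervals are not given, and counting error is only part of the spread. The labels give no batch and the groups share no replicate number.

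The members, lists and tests were chosen with earlier results of these data known. Named genes were the 9 members, Plg, Timp4 and Mmp9, up to 6 passing genes per pathway list, the 4 most abundant markers of each list, and the 3 genes of highest correlation with each member (mean of at least 5 CPM); some genes this rule names are not reported here. Alternatives were other scalings and filters, DESeq2 1.42.0, limma-voom (limma 3.58.1), robust edgeR, acinar or enterocyte covariates, the 8 libraries, and each library left out. In simulated data for this comparison (15298 genes), the test found 15 of 100 genes with a 2-fold and 70 of 100 with a 4-fold simulated difference, and it called 6 without one. The simulation drew each gene independently, without the shared shifts of marker lists seen between the libraries, so these numbers may not carry over to the data.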

Additional observations from a re-analysis of the deposited data

Results flagged for a closer look

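In sedentary 2 the level of Mmp7 was 9.77 CPM, against 1.08 to 3.52 CPM in the rest of its group. In the same library Serpinf2 was at 2.84 CPM, where the other 4 lay between 0.518 and 0.930 CPM. In both cases the gap to the nearest library, relative to the range of the group, exceeded the critical value of Dixon's test for 5 values (0.71). Such gaps were looked for in 38 groups, and by chance about 5% of groups show one. Sedentary 2 also held the highest enterocyte (24770 CPM) and Paneth and goblet sums (3761 CPM without Zg16).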

How the results depend on the processing

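Of all genes, 159 rose and 4408 fell with library totals alone, 1097 and 2642 with DESeq2, 177 and 339 with limma-voom, and 0 and 0 with the acinar or the enterocyte covariate (1605 and 381 genes at an unadjusted p under 0.05, edgeR). In the 8 libraries 644 rose, and with 1 library left out between 132 and 889 rose and between 800 and 2721 fell. Library totals alone moved the median log2 fold change of all genes to -0.34 and upper-quartile factors to 0.11. Of the 8 tested members, those that rose numbered 2 with DESeq2 (Timp3 and Plat), 1 in the 8 libraries and 0 to 1 with 1 library left out. Those that fell numbered 2 with library totals alone (Mmp14 and Mmp2), 0 with limma-voom or either covariate and 0 to 1 with 1 library left out. Of the pathway genes, 0 rose with limma-voom or either covariate, 4 in the 8 libraries and 1 to 3 with 1 library left out. Those that fell numbered 12 with library totals alone, 10 with DESeq2, 1 with limma-voom, 0 with either covariate and 0 to 9 with 1 library left out.

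With the enterocyte covariate log2 fold changes turned direction for Mmp7 (0.71), Timp2 (-0.59), Timp3 (-0.73), Plaur (-0.15), Plat (-0.81), Plgrkt (0.81), Mmp9 (-1.35), Mmp28 (0.53), Anxa2 (0.50) and Lrp1 (1.01). With the acinar covariate Timp2 (-0.13), Plau (-0.65) and Plaur (-0.68) did so, and Timp2 also with library totals alone (-0.064) and in the 8 libraries (-0.002). The covariates shared much of their variance with the group (r squared 0.654 for acinar, 0.792 for enterocyte markers), and the cause of these turns was not tested. Mmp2 and Mmp14 kept a negative log2 fold change in each of the 21 alternatives, between -2.53 and -0.77 and between -2.23 and -0.40. Mmp14 passed in 11 of the 21 and Mmp2 in 2. At 10 to 69 counts a library for Mmp2 and 1 to 31 for Timp1, counting error limits what can be seen.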
